A study of Epinephelus fuscoguttatus x Epinephelus lanceolatus with 9 samples.

Results

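The genes described here encode the pumps, carriers and channels that move sodium, chloride, bicarbonate, calcium and phosphate across the membranes of gut cells. They were chosen by symbol alone: the solute carrier families slc4, slc8, slc9, slc12, slc20, slc24, slc26 and slc34, the sodium pump subunits atp1a and atp1b, cftr, the clcn chloride channels and the bestrophins. This gave 69 of the 22344 genes in the deposited count table. Of these, 49 had enough counts to enter the tests, among 17731 tested genes. The other 20 had between 1 and 53 counts summed over all libraries and a mean of at most 0.171 CPM, the read count scaled to library size. Every library came from intestine of pearl gentian grouper, the farmed cross of Epinephelus fuscoguttatus and Epinephelus lanceolatus. The groups are labelled FM, SBM and Drug, with 3 libraries each. FM and SBM usually abbreviate fish meal and soybean meal in work on fish feed, which the labels leave unwritten. Lithospermum erythrorhizon, a medicinal herb, is named in the series title, but no agent, dose, duration, base diet, fish age or gut segment is given for any group. The labels do not say whether the libraries of a group were separate fish or pools, so the p-values below measure the spread between libraries, which may be technical.

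Marine fish drink seawater, and their intestine absorbs salt and water while it secretes bicarbonate into the gut fluid, where the bicarbonate precipitates calcium and magnesium as carbonates. In the textbook scheme the sodium pump of the basolateral membrane keeps cell sodium low, and an apical sodium-potassium-chloride cotransporter (NKCC2, encoded by slc12a1) brings in sodium and chloride. A basolateral sodium-bicarbonate cotransporter (NBCe1, encoded by slc4a4) and carbonic anhydrases supply bicarbonate to the cell. Apical anion exchangers such as slc26a6 pass that bicarbonate to the lumen in return for chloride.

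Several limits apply to all of these genes. Of 20 symbols fixed for this salt and bicarbonate route, 10 occurred in the table, and symbols such as slc9a3, slc26a3 and atp1a1b were not among them. A total of 8101 genes had a bare LOC number in place of a symbol, and these held 27.7% of the counts. Fish carry many duplicated genes, and reads may be split between copies of similar sequence. The sequences of duplicates such as atp1b1a and atp1b1b were not compared here. No source says that reads were counted by strand, and a gene cannot be told apart from an antisense partner.

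The libraries held 32.9 to 35.5 M counts each. FM replicate 3 stood apart: markers of hepatocytes summed to 20912 CPM there and to between 13.4 and 43.7 CPM in the other 8 libraries. The other FM libraries had 13.4 and 16.9 CPM, below the 32.3 to 38.8 CPM of SBM and 32.5 to 43.7 CPM of Drug. Without FM replicate 3, edgeR called 2 hepatocyte markers higher in SBM against FM and 4 in Drug against FM. Of all genes it then called 0.128% and 3.16%. The erythrocyte markers of FM replicate 3, at 588 CPM, were also above the 189 to 375 CPM of the others. Markers of pancreas ranged from 215 to 3146 CPM, with high and low libraries in each group. The summed markers of smooth muscle overlapped between the groups, at 8236 to 15378 CPM in FM, 12471 to 23805 CPM in SBM and 9014 to 13387 CPM in Drug. All 9 tested smooth muscle markers had positive log2 differences in SBM against FM and negative ones in Drug against SBM, and 0 passed. In Drug against SBM, 3 of them did not overlap and were lower (33.3%, beside 10.7% of all genes). There 3 had an unadjusted p under 0.05 (33.3%, beside 13.1%). In SBM against FM 1 had such a p (11.1%, beside 20.5%), and 0 had groups that did not overlap. Markers of leukocytes summed to 321 to 745 CPM in FM, 175 to 302 CPM in SBM and 181 to 620 CPM in Drug. Of the 9 tested, all had negative log2 differences in SBM against FM and 7 in Drug against FM. In each comparison 4 had an unadjusted p under 0.05 (44.4%, beside 20.5% and 23.8% of all genes), and 0 passed edgeR's test. DESeq2 called 1 (cd4-1) and 2 (cd4-1 and cd79a) lower, beside 9.23% and 13.8% of all genes. With the replicate number as a block, edgeR called 1 (cd79a) and 2 (cd79a and ptprc) lower, beside 1.66% and 7.29%. The part of these other cells in the transporter values was not tested. Markers of enterocytes, the absorptive cells in which most of these transporters work, were present in all libraries, with 7 of 15 listed genes in the table. They summed to 2514 to 3086 CPM in FM, 3711 to 6967 CPM in SBM and 8597 to 10495 CPM in Drug. The sum thus moved with the groups, but not every marker did. In Drug against SBM, 2 of the 6 tested did not overlap and were higher, and 2 did not overlap and were lower. Over all genes these shares were 9.2% and 10.7%.

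Levels were compared between genes on the FPKM scale, which divides the count by gene length and library total. Of the 69 genes, 3 had a mean of at least 100 FPKM over the 9 libraries, 10 lay between 10 and 100 FPKM, 19 between 1 and 10 FPKM, and 37 under 1 FPKM. The 3 most abundant were atp1b1b, a beta subunit of the sodium pump, at 484 FPKM, slc9a3r1a at 419 FPKM, and slc12a1 at 196 FPKM. Together they held 78.0% of the summed FPKM of the 69 genes. The gene slc9a3r1a bears the symbol of an exchanger family, but it encodes NHERF1, a scaffold protein that anchors transporters at the apical membrane. Next came atp1b1a at 53.7 FPKM, the anion exchanger slc26a1 at 32.4 FPKM and the bestrophin best4 at 29.7 FPKM.

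**Figure D1:**
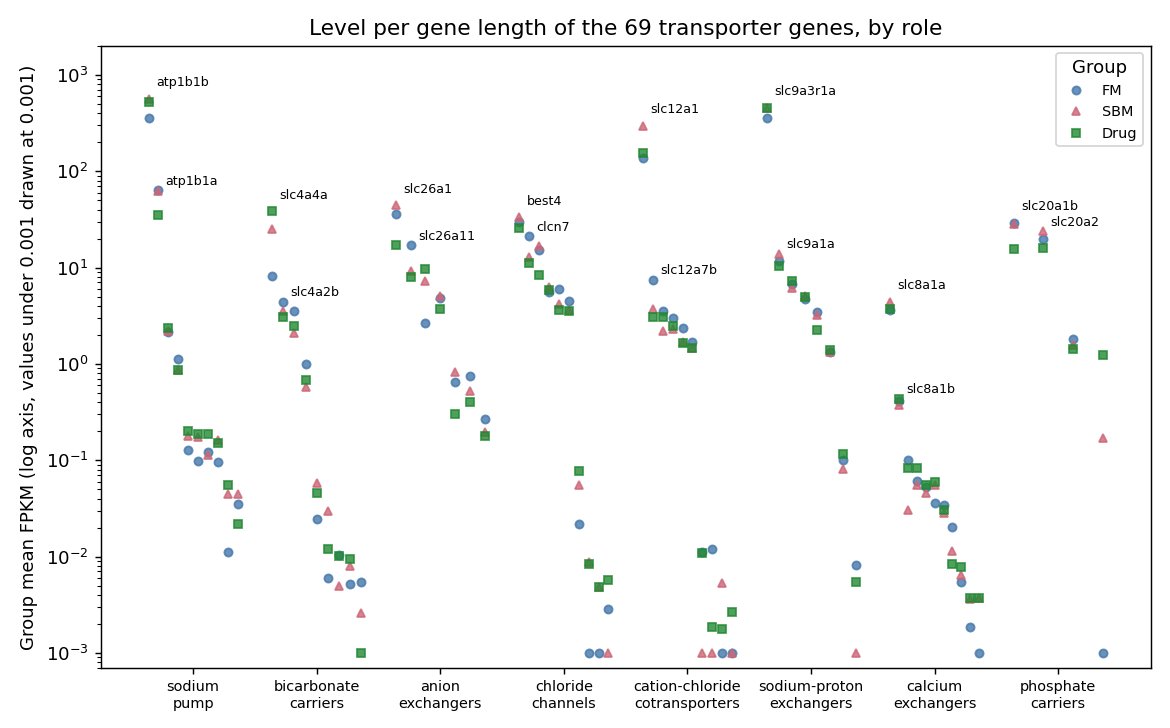
Mean FPKM (log axis, values under 0.001 drawn at 0.001) of each of the 69 genes in FM (circles), SBM (triangles) and Drug (squares), arranged by role and, within a role, by the mean over 9 libraries. The sodium pump subunit atp1b1b, the scaffold slc9a3r1a and the cotransporter slc12a1 stand above 100 FPKM in each group, and the group means of slc4a4a spread from 8.12 FPKM in FM to 38.3 FPKM in Drug.

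Several families were dominated by 1 gene. The slc12 family summed to 210 FPKM, of which slc12a1 held a mean of 91.2%. Its secretory relative slc12a2 (NKCC1), which loads chloride from the blood side, was at 2.60 FPKM, and slc12a3, the sodium-chloride cotransporter, had at most 0.0894 CPM in any library. Among the 7 beta subunits of the sodium pump, atp1b1b held 89.0% of the summed 541 FPKM. The 3 genes with an alpha subunit symbol, the part of the pump that splits ATP, summed to only 1.16 FPKM, most of it atp1a3b. In the slc4 family the leading gene was slc4a4a at 23.9 FPKM, ahead of slc4a2b, a chloride-bicarbonate exchanger, at 3.70 FPKM and of the red cell exchanger slc4a1a (band 3) at 2.70 FPKM. In the slc26 family the order was slc26a1 at 32.4 FPKM, slc26a11 at 11.4 FPKM and slc26a6 at 6.51 FPKM.

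The bicarbonate route held both genes that passed the threshold. In Drug against FM, edgeR's quasi-likelihood test called slc4a4a and slc26a6 higher and 0 transporter genes lower, which is 2 of the 49 tested (4.08%), against 4.38% of all tested genes called in either direction, 2.86% higher and 1.52% lower. The share called among the transporters was thus close to that of genes at large. DESeq2 called 8 in the same comparison, 4 higher (those 2, atp1b1b and slc34a2a) and 4 lower (atp1b1a, clcn6, clcn7 and slc26a1), with 13.8% of all genes called. In SBM against FM, 0 of 49 passed edgeR's quasi-likelihood test, with 0.592% of all genes called (0.446% higher and 0.147% lower), and 4 had an unadjusted p under 0.05. DESeq2 called 3 there (slc4a4a, slc26a6 and atp1b1b, all higher), with 9.23% of all genes. In Drug against SBM, 0 of 49 passed, with 0.0395% of all genes called, 5 had an unadjusted p under 0.05, and DESeq2 called 3, with 3.55% of all genes. SBM against FM and Drug against FM share their 3 FM libraries, so their values are not independent.

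The sodium-bicarbonate cotransporter gene slc4a4a stood at 41.3, 38.1 and 48.03 CPM in the FM libraries, in order of replicate number. Its level was 191, 65.9 and 195 CPM in SBM and 121, 224 and 284 CPM in Drug. All 6 SBM and Drug libraries lay above all 3 FM libraries, SBM replicate 2 was the lowest of the 6, and SBM and Drug overlapped. The mean was 42.5 ± 5.06 CPM in FM, 151 ± 73.5 CPM in SBM and 209.6 ± 82.3 CPM in Drug (SD, n = 3). In Drug against FM it rose 4.94-fold, a log2 fold change of 2.30 ± 0.44 (SE; edgeR adjusted p = 0.0281). Between SBM and FM the log2 difference was 1.83 ± 0.43 (adjusted p = 0.0850), and between Drug and SBM it was 0.48 ± 0.42 (adjusted p = 0.655). Within the slc4 family, slc4a4a held 44.1% to 49.9% of the summed FPKM in the FM libraries, 59.8% to 85.9% in SBM and 78.7% to 88.8% in Drug.

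The call for slc4a4a in Drug against FM held in 4 of the 9 fits that left out 1 library: without Drug replicate 1 (adjusted p = 0.0485) and without SBM replicate 1 (0.0254), 2 (0.00714) or 3 (0.0491). It was lost in the other 5, with log2 differences of 2.02 to 2.40. Its adjusted p was 0.0691 without Drug replicate 2, 0.0899 without Drug replicate 3, 0.0888 without FM replicate 1, 0.117 without FM replicate 2 and 0.0516 without FM replicate 3. Without SBM replicate 2, its difference between SBM and FM passed, at an adjusted p of 0.0193. That difference passed in no other fit that left out a single library, and the edgeR adjusted p reached 0.261 without SBM replicate 3. DESeq2 called slc4a4a higher in SBM against FM (DESeq2 adjusted p = 0.00112).

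The apical exchanger gene slc26a6, which swaps chloride for bicarbonate, stood at 11.8, 9.28 and 8.60 CPM in FM. It was at 28.7, 32.8 and 29.7 CPM in SBM and at 20.7, 37.3 and 54.7 CPM in Drug. Again every SBM and Drug library was above every FM library, and the SBM libraries lay within the wide range of the Drug libraries. The means were 9.89 ± 1.68 CPM in FM, 30.4 ± 2.11 CPM in SBM and 37.6 ± 17.0 CPM in Drug (SD, n = 3). The gene rose 3.80-fold in Drug against FM, a log2 fold change of 1.92 ± 0.31 (SE; edgeR adjusted p = 0.0186). Its 3.07-fold difference between SBM and FM narrowly missed the threshold, at a log2 value of 1.62 ± 0.31 (adjusted p = 0.0535). The difference between Drug and SBM was 0.30 ± 0.30 (adjusted p = 0.702). For Drug against FM the adjusted p was 0.0646 without Drug replicate 3, 0.0581 without FM replicate 1 and 0.0889 without FM replicate 2. Without Drug replicate 1, a library of neither group, the SBM against FM value passed at 0.0432, and with a stricter filter on low counts at 0.0421. DESeq2 also called it. It passed in no other fit that left out a single library, and the edgeR adjusted p reached 0.200 without SBM replicate 3. With only the 2 groups fitted it was 0.101.

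Because slc26a1 is the larger gene of the family, slc26a6 held 3.53% to 4.79% of the summed slc26 FPKM in the FM libraries. That share was 8.29% to 15.1% in SBM and 17.8% to 29.4% in Drug, and the ranges of the 3 groups did not overlap. The summed slc26 FPKM was itself lower in Drug, at 39.5 ± 9.01 FPKM against 67.3 ± 22.8 FPKM in SBM (SD, n = 3), with slc26a1 at 17.3 and 44.3 FPKM, while slc26a6 overlapped between SBM and Drug. The related symbol slc26a6l was low throughout, at 0.648 to 4.13 CPM, with a log2 difference of -0.82 ± 0.58 between Drug and FM (adjusted p = 0.431).

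The chloride channel cftr, through which chloride and bicarbonate leave secretory cells, showed no such pattern. Its libraries stood at 63.7, 48.2 and 36.4 CPM in FM, 42.2, 63.0 and 80.7 CPM in SBM, and 47.8, 55.5 and 59.2 CPM in Drug. The 3 groups overlapped, and the log2 difference between Drug and FM was 0.13 ± 0.27 (adjusted p = 0.809).

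**Figure D2:**
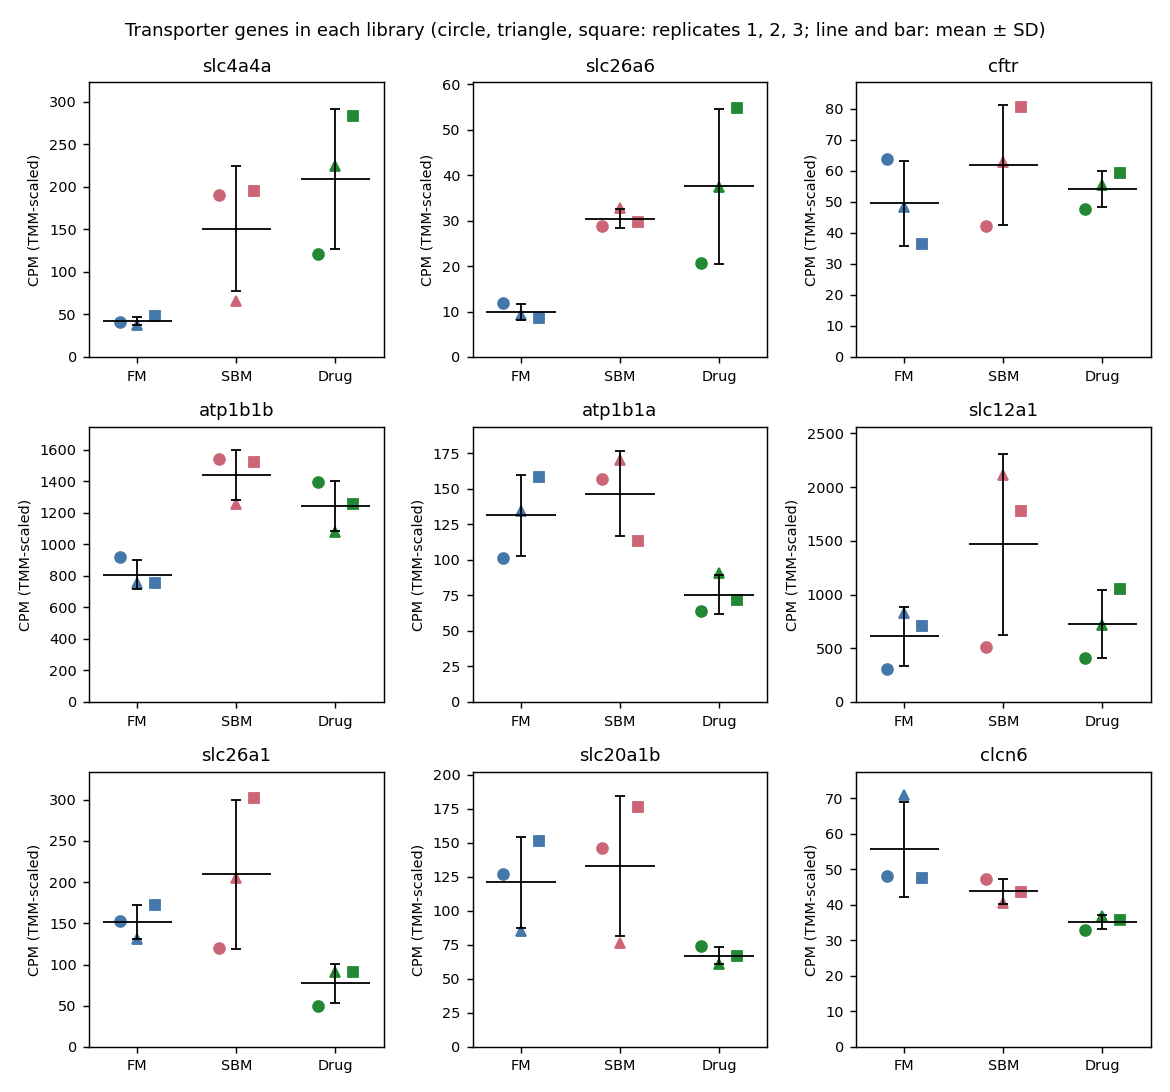
CPM of selected transporter genes in each of the 9 libraries by group, with circles, triangles and squares for replicates 1, 2 and 3, a line at the group mean and bars of ± SD. For slc4a4a and slc26a6 every SBM and Drug library lies above the FM libraries, while cftr overlaps across the 3 groups and slc12a1 is lowest in replicate 1 of each group.

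Intestine is a mixture of cells, and in bulk RNA a smaller number of cells of a type cannot be told apart from less RNA per cell. The enterocyte cadherin cdh17 itself had a mean of 854 ± 61.0 CPM in FM (SD, n = 3). It rose to 1692 ± 180.4 CPM in the SBM group (log2 0.99, edgeR adjusted p = 0.0283) and to 1417 ± 108 CPM in the Drug group (log2 0.73 against FM, adjusted p = 0.0243). The fatty acid binding protein gene fabp2 rose in Drug against FM by 3.197 on the log2 scale (adjusted p = 0.0183). Of 6 tested enterocyte markers, edgeR called 1 higher in SBM against FM, 0 in Drug against SBM and 2 higher in Drug against FM. Of all genes it called 0.592%, 0.0395% and 4.38%. DESeq2 called 2, 1 (fabp2) and 3 enterocyte markers higher, beside 9.23%, 3.55% and 13.8% of all genes. The edgeR calls were lost in some fits that left out a single library. For cdh17 the adjusted p without FM replicate 3 was 0.0661 in SBM against FM and 0.0518 in Drug against FM, and over all libraries left out in turn it reached 0.158 and 0.101. For fabp2 it reached 0.0798. Their part in the transporter values was not tested. Ratios to cdh17, a gene chosen after its values were seen, are given beside them.

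Per 100 CPM of cdh17, slc4a4a stood at 4.49, 4.498 and 6.03 CPM in FM. It was at 12.1, 4.12 and 10.28 CPM in SBM and at 7.91, 17.1 and 20.1 CPM in Drug. On this scale all Drug libraries were above all FM libraries, but SBM replicate 2 was below the lowest FM library. For slc26a6 the ratios were 1.28, 1.09 and 1.08 in FM, 1.82, 2.05 and 1.56 in SBM, and 1.35, 2.84 and 3.89 in Drug. Each SBM and Drug ratio of slc26a6 was above each FM ratio, Drug replicate 1 only narrowly. These separations of Drug from FM were seen with cdh17 as the divisor, which rose by 0.73 on the log2 scale. The marker fabp2, at 3.197, rose by more than slc4a4a (2.30) or slc26a6 (1.92). Over the 6 tested enterocyte markers the log2 differences in Drug against FM ran from -0.246 to 6.081, with a median of 0.736. Ratios to the other markers or to their sum were not tested. The ratios of atp1b1b were 99.9, 88.7 and 94.8 in FM, 97.8, 78.5 and 80.1 in SBM, and 91.4, 82.1 and 89.0 in Drug, so its groups overlapped once set against cdh17.

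**Figure D3:**
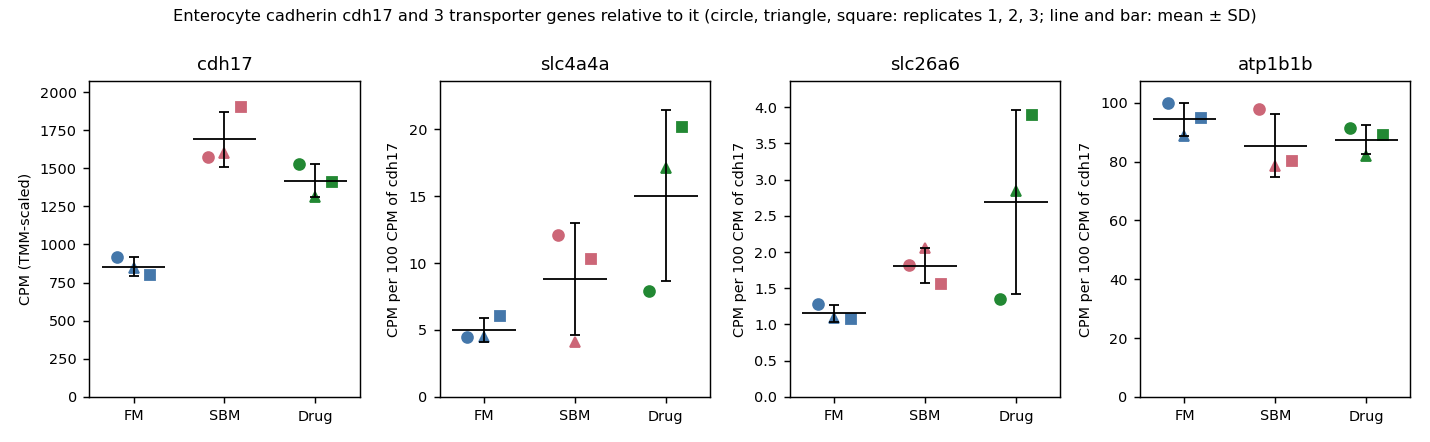
CPM of slc4a4a, slc26a6 and atp1b1b per 100 CPM of the enterocyte gene cdh17, beside the CPM of cdh17 itself, with circles, triangles and squares for replicates 1, 2 and 3, a line at the group mean and bars of ± SD. The FM ratios lie between 4.49 and 6.03 for slc4a4a and between 1.08 and 1.28 for slc26a6, below all Drug libraries, whereas the atp1b1b ratios of the 3 groups overlap.

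The other bicarbonate carriers did not pass. The exchanger slc4a2b stood at 23.9, 23.4 and 28.3 CPM in FM and at 18.3, 17.5 and 19.3 CPM in Drug, which do not overlap (log2 difference -0.46 ± 0.20, adjusted p = 0.197). Its SBM libraries, at 16.1, 25.98 and 25.8 CPM, overlapped both. The sodium-driven exchanger slc4a8 had under 1 CPM in every library, and its SBM libraries, at 0.345 to 0.764 CPM, lay above the 0.0589 to 0.301 CPM of FM (log2 1.43 ± 0.59, adjusted p = 0.214). Band 3, slc4a1a, was highest in FM replicate 3 at 21.0 CPM, against 5.87 to 10.7 CPM elsewhere, and this is the library with the highest erythrocyte markers; their part in its level was not tested.

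Among the sodium pump genes, atp1b1b came closest to the threshold. Its beta subunit carries the catalytic subunit to the membrane. The libraries held 917, 752 and 756 CPM in FM, 1542, 1256 and 1522 CPM in SBM, and 1398, 1077 and 1253 CPM in Drug. All SBM and Drug libraries exceeded all FM libraries. The mean in SBM was 1.78-fold that in FM, a log2 difference of 0.83 ± 0.15 (SE; edgeR adjusted p = 0.0516), and in Drug 1.54-fold, a log2 difference of 0.62 ± 0.15 (adjusted p = 0.0537). With the replicate number as a block, both differences passed edgeR's test, at an adjusted p of 0.0276 and 0.0259. So they did with a stricter filter (0.0320 and 0.0335) and with upper quartile factors (0.04996 and 0.0464). Neither passed with RLE factors (0.0533 and 0.0535), without a filter (0.0597 and 0.0657) or with limma at either pseudocount. DESeq2 called the gene in both comparisons with FM. Leaving out SBM replicate 2 also brought it past the threshold, at 0.0312 in SBM against FM and 0.0381 in Drug against FM. So did leaving out SBM replicate 1 in Drug against FM, at 0.0362. It passed in no other fit that left out a single library. There the edgeR adjusted p reached 0.212 in SBM against FM (without SBM replicate 3) and 0.180 in Drug against FM (without Drug replicate 1). With only the 2 groups fitted it was 0.148 and 0.0410.

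Its duplicate atp1b1a differed in pattern. It stood at 102, 135 and 158 CPM in FM, 157, 170.3 and 113 CPM in SBM, and 64.0, 90.6 and 71.6 CPM in Drug. The 3 Drug libraries were below all 6 others, while FM and SBM overlapped. The log2 difference was -0.96 ± 0.23 between Drug and SBM (adjusted p = 0.180) and -0.80 ± 0.23 between Drug and FM (adjusted p = 0.0815). DESeq2 called atp1b1a lower in both. Over the 8 tested pump genes the median log2 difference was 0.47 in SBM against FM, -0.06 in Drug against SBM and 0.65 in Drug against FM, where the median of all tested genes was 0.01, -0.01 and -0.04. These medians lean on scarce genes: atp1a3a, atp1b2a, atp1b2b and atp1b3a had means of 0.292 to 0.667 CPM. Their log2 differences in Drug against FM were 0.68 to 0.97. The more abundant genes went both ways there: 0.62 for atp1b1b, 0.21 for atp1b4, -0.27 for atp1a3b and -0.80 for atp1b1a.

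The absorptive cotransporter gene slc12a1 varied widely within groups. It stood at 302, 826 and 707 CPM in FM, 512, 2114 and 1776 CPM in SBM, and 413, 715 and 1047 CPM in Drug. The lowest library of each group was replicate 1, and SBM spanned a 4.13-fold range, the widest of any transporter with at least 5 CPM in that group. SBM replicates 2 and 3 were the highest of the 9 libraries, yet the groups overlapped. The log2 difference was 1.26 ± 0.59 between SBM and FM (adjusted p = 0.268), -1.02 ± 0.58 between Drug and SBM (adjusted p = 0.497) and 0.24 ± 0.58 between Drug and FM (adjusted p = 0.837).

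No cation-chloride cotransporter passed. NKCC1, slc12a2, stood at 21.6 to 30.6 CPM in all libraries, its Drug libraries below those of FM (log2 -0.23 ± 0.16, adjusted p = 0.431). The potassium-chloride cotransporter slc12a7b stood at 66.3 CPM in FM replicate 3 and at 12.2 to 21.7 CPM in the other 8 libraries. Its log2 difference of -1.25 ± 0.46 between Drug and FM (adjusted p = 0.146) thus includes the library with the highest hepatocyte markers, whose part in it was not tested. The symbol slc12a8 was higher in every Drug library (7.93 to 8.75 CPM) than in any SBM library (5.23 to 7.44 CPM), the only one of the 49 for which that was so, at a log2 difference of 0.39 ± 0.22 (adjusted p = 0.499). For slc12a9 the FM libraries, at 9.57 to 11.8 CPM, were above those of SBM and Drug (log2 -0.44 ± 0.17 in Drug against FM, edgeR adjusted p = 0.165). SBM replicate 2, at 9.45 CPM, was only narrowly below FM.

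No other anion exchanger passed edgeR's test as fitted over all libraries, and DESeq2 called slc26a1 and slc26a10. The gene slc26a1, a sulfate carrier in mammals, stood at 153, 131 and 172 CPM in FM, 120.3, 206 and 302 CPM in SBM, and 49.2, 90.4 and 91.2 CPM in Drug. All Drug libraries were below all others. Its log2 difference was -1.44 ± 0.35 between Drug and SBM (adjusted p = 0.180) and -0.98 ± 0.35 between Drug and FM (adjusted p = 0.130), and DESeq2 called it lower in both.

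The related slc26a11 stood at 48.7, 41.6 and 42.4 CPM in FM, 11.9, 40.8 and 25.9 CPM in SBM, and 25.1, 16.5 and 24.4 CPM in Drug. Here FM was above both other groups, SBM replicate 2 only narrowly, and those groups overlapped each other. The log2 differences from FM were -0.75 ± 0.37 in SBM (edgeR adjusted p = 0.290) and -1.01 ± 0.37 in Drug (adjusted p = 0.147). The scarce slc26a10 had 0.617 to 1.09 CPM in Drug and 1.87 to 3.28 CPM in SBM (log2 -1.58 ± 0.49, edgeR adjusted p = 0.239, DESeq2 adjusted p = 0.0493). Over the 7 tested slc26 genes, 6 of the log2 differences between Drug and FM were negative and slc26a6 alone was positive.

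Of the 7 tested chloride channel genes, 0 passed edgeR's test in any comparison as fitted over all libraries. The gene clcn7, whose product works in lysosomes, stood at 126, 115 and 110.0 CPM in FM, 47.6, 109.6 and 79.0 CPM in SBM, and 59.3, 80.4 and 55.8 CPM in Drug. FM was above both other groups, SBM replicate 2 only narrowly (log2 -0.84 ± 0.28 in Drug, edgeR adjusted p = 0.115). The late endosomal clcn6 stood at 48.1, 71.1 and 47.6 CPM in FM, 47.4, 40.4 and 43.5 CPM in SBM, and 32.9, 36.8 and 35.7 CPM in Drug. Its 3 groups did not overlap, in the order FM, SBM, Drug, though FM and SBM only narrowly, at 47.6 and 47.4 CPM. The log2 difference between Drug and FM was -0.66 ± 0.18 (edgeR adjusted p = 0.0697). DESeq2 called both genes lower in Drug against FM. Without SBM replicate 1, edgeR called clcn7 (adjusted p = 0.0317), slc26a11 (0.0298) and clcn5b (0.0158) lower in Drug against FM. It called 9.47% of all genes in that fit. With only the Drug and FM groups fitted, edgeR called the same genes lower, at 0.0288, 0.0219 and 0.0122 in that order. There it called 9.03% of all genes.

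The endosomal exchanger clcn5b stood at 68.4, 60.9 and 65.3 CPM in FM, 33.7, 114 and 86.5 CPM in SBM, and 37.9, 37.3 and 35.7 CPM in Drug. The Drug libraries lay close together, below FM, and SBM replicate 1 was below them (log2 -1.08 ± 0.35 in Drug against SBM, adjusted p = 0.266). Without SBM replicate 1 that difference passed, at an adjusted p of 0.0380. The bestrophin best4, in mammals a marker of a subset of enterocytes, overlapped between groups at 30.0 to 62.7 CPM.

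The exchanger family slc9 had no member past the threshold, and none with groups that did not overlap apart from slc9a3r1b in SBM against FM. The scaffold slc9a3r1a stood at 918, 590.2 and 724 CPM in FM, 1415, 689.6 and 1159 CPM in SBM, and 981, 848 and 1155 CPM in Drug. Its log2 difference between SBM and FM was 0.55 ± 0.27 (adjusted p = 0.286). The second scaffold, slc9a3r1b, was at 12.1 to 13.5 CPM in FM and 13.98 to 16.9 CPM in SBM (log2 0.28 ± 0.14, adjusted p = 0.299). The housekeeping sodium-proton exchanger slc9a1a overlapped in all groups, at 75.6 to 153 CPM.

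Calcium exchangers were scarce. The sodium-calcium exchanger slc8a1a led them at 3.90 FPKM and its duplicate slc8a1b followed at 0.409 FPKM. The former stood at 14.4 to 25.3 CPM in FM and 22.4 to 35.2 CPM in SBM (log2 0.50 ± 0.26, adjusted p = 0.305), the latter at 3.54 to 4.98 CPM in all libraries. Of the 11 calcium exchanger genes 5 were tested.

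Of the phosphate carriers, slc20a1b was the most abundant by length-scaled level, at 24.5 FPKM. It stood at 127, 85.1 and 151 CPM in FM, 146, 76.1 and 176 CPM in SBM, and 73.8, 61.0 and 66.5 CPM in Drug. The Drug libraries were below all others, with replicate 2 lowest in each group. The log2 difference was -0.99 ± 0.31 between Drug and SBM (adjusted p = 0.252) and -0.85 ± 0.31 between Drug and FM (adjusted p = 0.143). Its relative slc20a2 overlapped between groups at 51.1 to 149 CPM.

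The apical phosphate cotransporter slc34a2a had 0 counts in the 3 FM libraries. It stood at 1.04, 0 and 0.0894 CPM in SBM and at 0.0569, 5.17 and 1.996 CPM in Drug, so most of its signal lay in Drug replicates 2 and 3. It passed the filter on low counts through SBM replicate 1 and Drug replicates 2 and 3, with 30, 181 and 68 counts. A floor of 3 counts over the FM group is 0.0277 CPM. Its Drug mean of 2.41 ± 2.58 CPM was 87.1-fold that floor and its SBM mean of 0.377 ± 0.578 CPM 13.6-fold (SD, n = 3). Both ratios rest on the libraries through which the gene passed the filter, and each SD exceeds its mean. They set no lower bound for the other libraries, as Drug replicate 1 had 2 counts and SBM replicates 2 and 3 had 0 and 3. The adjusted p was 0.133 in Drug against FM and 0.322 in SBM against FM, and DESeq2 called the former.

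**Figure D4:**
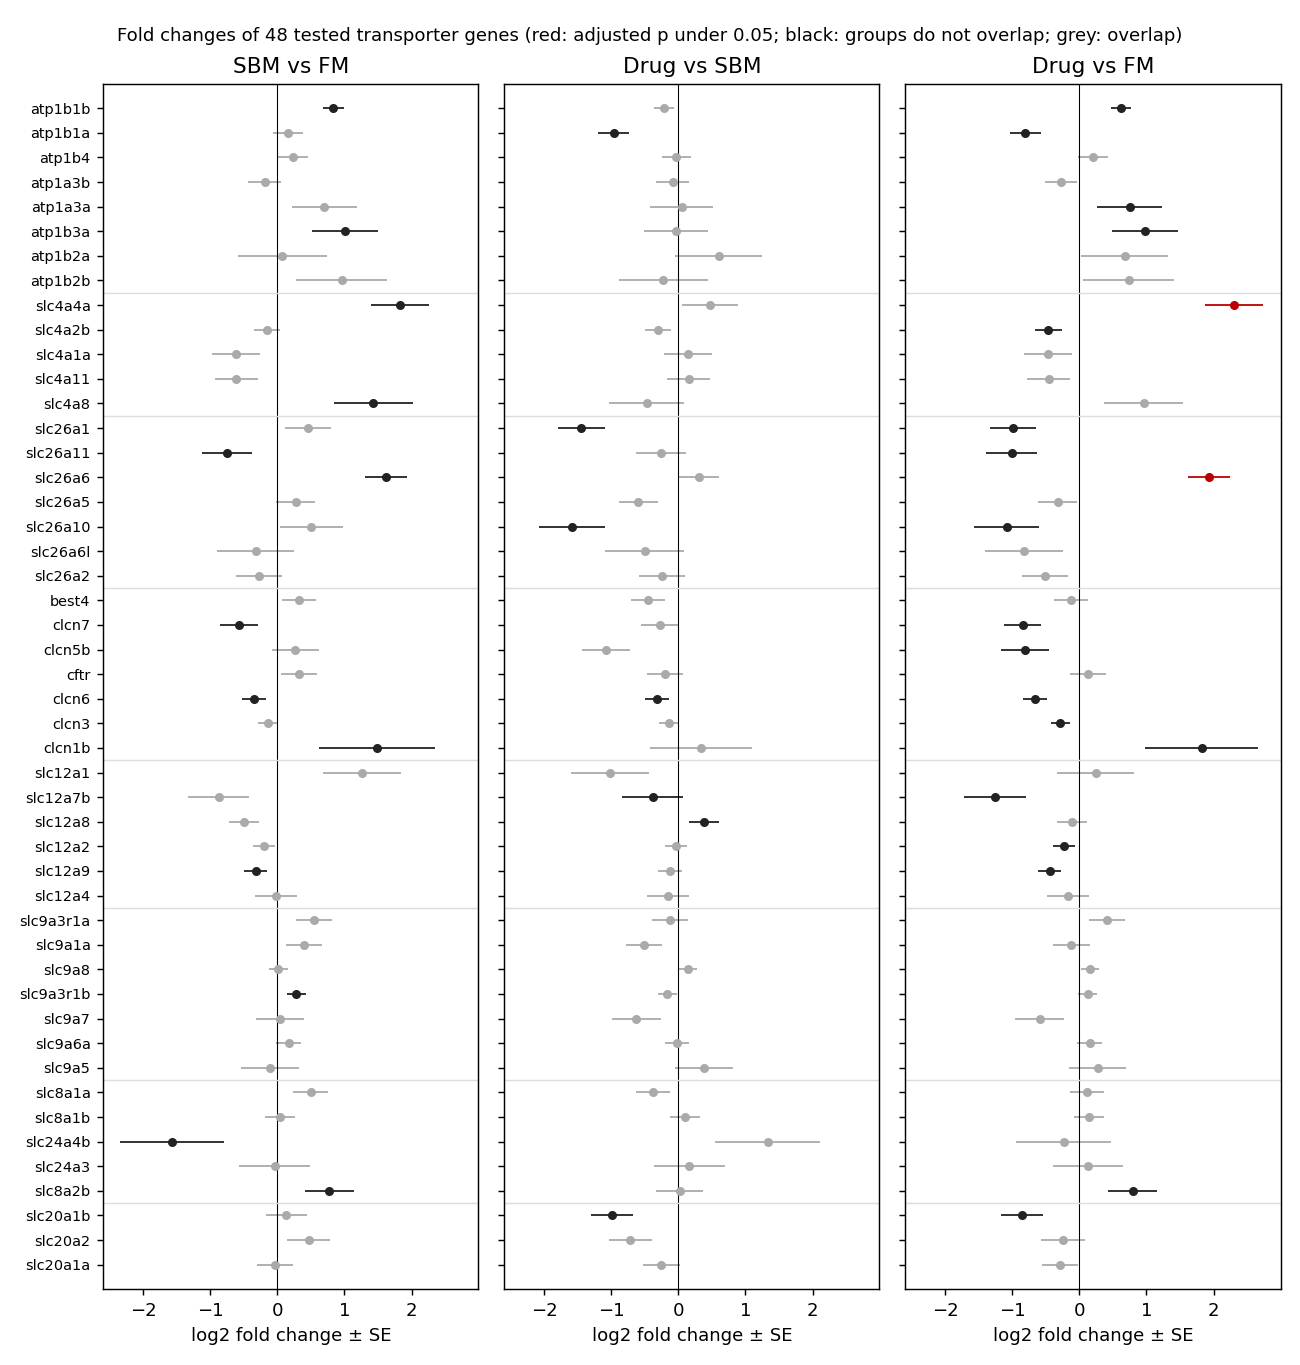
Log2 fold changes ± SE of the tested transporter genes in the 3 comparisons, arranged by role, in red where the adjusted p was under 0.05, in black where the groups did not overlap and in grey otherwise; slc34a2a, with 0 counts in FM, is not drawn. Of the genes drawn, slc4a4a (2.30) and slc26a6 (1.92) are red, both in Drug against FM alone.

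Over the 49 tested genes the median log2 difference was 0.16 in SBM against FM, -0.16 in Drug against SBM and -0.12 in Drug against FM, beside 0.01, -0.01 and -0.04 over all tested genes. In SBM against FM, 13 of the 49 had groups that did not overlap, 8 higher and 5 lower, or 26.5% against 22.8% of all genes (11.1% higher and 11.7% lower). Between Drug and SBM these were 7, 1 higher and 6 lower, or 14.3% against 19.9% (9.2% and 10.7%). Between Drug and FM they were 21, 8 higher and 13 lower, or 42.9% against 32.8% (16.6% and 16.2%). At an unadjusted p under 0.05 the share was 8.16% in SBM against FM (20.5% of all genes), 10.204% in Drug against SBM (13.1%) and 28.6% in Drug against FM (23.8%). In Drug against FM alone were both shares above the background. Summed over the 69 genes, the level was 3394 to 3619 CPM in FM, 4856 to 6184 CPM in SBM and 3771 to 4694 CPM in Drug, ranges that do not overlap. Much of that sum lay on atp1b1b (means of 808, 1440 and 1243 CPM in FM, SBM and Drug), slc12a1 (612, 1468 and 725 CPM) and the scaffold slc9a3r1a (744, 1088 and 995 CPM). The groups overlapped for slc12a1 and for slc9a3r1a, so the sum does not describe the genes at large.

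Variation within groups was widest in SBM. Among genes with at least 5 CPM, the median ratio of the highest to the lowest library of a group was 1.86 in SBM, 1.39 in FM and 1.33 in Drug. SBM replicate 1 was the highest or lowest of all 9 libraries for 19 of the 49 genes and FM replicate 3 for 17, and the other 7 libraries for 6 to 12 genes each. Without FM replicate 3, 0 transporter genes were called in SBM against FM and 1, slc26a6, in Drug against FM. The shares of all genes called there were 0.128% and 3.16%. Leaving out FM replicate 1 or FM replicate 2 instead gave 0 transporter calls in both comparisons. Of all genes, 0.0111% were then called in SBM against FM, and 0.605% and 0.0555% in Drug against FM.

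Genes that work beside these transporters were read from lists of symbols. Of the 80 tested genes of these lists, 0 passed edgeR's test in any of the 3 comparisons as fitted over all libraries. In SBM against FM, Drug against SBM and Drug against FM in turn, the number with an unadjusted p under 0.05 was 0, 1 and 1 of 7 carbonic anhydrases, 1, 2 and 2 of 19 proton pump subunits, and 5, 2 and 5 of 24 potassium channels and FXYD subunits. It was 6, 5 and 6 of 23 regulators of transport, and 3, 0 and 2 of 7 genes of calcium and phosphate handling. Over all genes the shares at that p were 20.5%, 13.1% and 23.8%. DESeq2 called 0, 1 and 1 carbonic anhydrases, 3, 1 and 3 potassium channels, 3, 3 and 5 regulators, 2, 0 and 1 calcium and phosphate genes, and no proton pump subunit. Together that is 8, 5 and 10 of the 80, where DESeq2 called 9.23%, 3.55% and 13.8% of all genes. Some of these genes passed edgeR's test under other settings. With the replicate block these were 1, 0 and 7 of 80, beside 1.66%, 0.00564% and 7.29% of all genes. Without SBM replicate 1 they were 3, 1 and 8 of 83, beside 2.35%, 0.199% and 9.47%. Without SBM replicate 2 they were 1, 0 and 4 of 83, beside 1.68%, 0% and 6.72%. Without FM replicate 3 they were 0, 0 and 1 of 84, beside 0.128%, 0% and 3.16%.

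Carbonic anhydrases hydrate carbon dioxide to bicarbonate. The most abundant was ca7, a cytosolic form, at 81.8 FPKM, with 148 to 157 CPM in FM, 166 to 196 CPM in SBM and 154 to 214 CPM in Drug. The mitochondrial form ca5a stood at 146, 126 and 254 CPM in FM, 67.6, 329 and 237 CPM in SBM, and 16.2, 60.8 and 37.5 CPM in Drug. Every Drug library was below every other library, at a log2 difference of -2.47 ± 0.65 against SBM (adjusted p = 0.205) and -2.20 ± 0.65 against FM (adjusted p = 0.0910, and 0.0399 without SBM replicate 1).

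Potassium channels recycle the potassium that the pump and NKCC2 bring into the cell. The inward rectifier kcnj15 stood at 107, 113 and 116 CPM in FM, 144, 272 and 235 CPM in SBM, and 117, 113 and 120.3 CPM in Drug. Its SBM libraries were above all others, while FM and Drug overlapped, at a log2 difference of 0.96 ± 0.22 between SBM and FM (adjusted p = 0.0789) and -0.90 ± 0.22 between Drug and SBM (adjusted p = 0.184). Without SBM replicate 1 both passed, at 0.0209 and 0.0427. The scarcer kcnj19a was at 5.92 to 11.05 CPM in FM, 0.139 to 2.84 CPM in SBM and 0.512 to 1.41 CPM in Drug (log2 -2.90 ± 0.81 in Drug against FM, adjusted p = 0.0778). Its adjusted p was 0.0170 without SBM replicate 1 and 0.0370 without SBM replicate 2.

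Among the regulators, wnk4a, a kinase that controls the slc12 cotransporters, stood at 36.2, 51.5 and 22.5 CPM in FM, 10.9, 27.6 and 18.7 CPM in SBM, and 8.53, 15.9 and 12.2 CPM in Drug (log2 -1.59 ± 0.40 in Drug against FM, adjusted p = 0.0585). It passed without FM replicate 3 (0.0482), SBM replicate 1 (0.0318) or SBM replicate 2 (0.0408). The gene ahcyl2b, whose mammalian counterpart binds and activates NBCe1, stood at 89.3, 59.9 and 84.4 CPM in FM, 213, 88.8 and 167 CPM in SBM, and 156, 166 and 219 CPM in Drug. Its Drug libraries were above all FM libraries (log2 1.21 ± 0.31, adjusted p = 0.0604), and SBM replicate 2 was its lowest value outside FM, as it was for slc4a4a. The difference passed without SBM replicate 1 (0.0287) or SBM replicate 2 (0.0177), and without the latter so did that between SBM and FM (0.0370).

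The prostaglandin carrier slco2a1 had 15.0 to 24.5 CPM in FM, 34.2 to 92.0 CPM in SBM and 11.996 to 25.3 CPM in Drug (log2 1.69 ± 0.40 in SBM against FM, adjusted p = 0.0853). With the replicate number as a block this difference passed, at an adjusted p of 0.0484, as it did without SBM replicate 1, at 0.0402. The kinase oxsr1b, which phosphorylates slc12 cotransporters, was lowest in SBM, at 7.39 to 7.72 CPM, against 10.6 to 11.1 CPM in FM and 10.45 to 11.1 CPM in Drug (log2 -0.52 ± 0.13 in SBM against FM, adjusted p = 0.0999). The phosphate exporter xpr1a was at 15.1 to 16.3 CPM in FM, 21.1 to 29.5 CPM in SBM and 21.5 to 25.7 CPM in Drug (log2 0.61 ± 0.16 in Drug against FM, adjusted p = 0.0634). Without SBM replicate 1 it passed in Drug against FM (0.0288) and in SBM against FM (0.0456).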

How the data were processed

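Per the labels' protocols, TRIzol was used for RNA and a VAHTS Universal V6 kit for the libraries. Tools listed without roles in the submitters' processing notes are fastp, HISAT2, HTSeq, R 3.2.0 and DESeq2, and the build listed is mm10, of mouse. A fish genome was not given in the sources used here, so genes carry no coordinates. The deposited counts are whole reads per gene, not normalized. The deposited FPKM values equal those counts scaled by gene length and total count, checked on 15780 genes within a relative tolerance of 1e-06. They were used to compare levels between genes and in a limma alternative.

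Counts of 17731 genes kept by filterByExpr were fitted with edgeR 4.0.16 in R 4.3.3 (TMM factors, robust quasi-likelihood F test, two-sided, 3 groups, 9 libraries, 6 residual degrees of freedom). Benjamini-Hochberg adjustment ran over all tested genes, with a threshold of 0.05. CPM values are TMM-scaled. Each standard error is the log2 fold change divided by the root of F. The scripts were tested on simulated counts, with 100 genes changed 2-fold and 100 changed 4-fold in each comparison. In SBM against FM, Drug against SBM and Drug against FM, edgeR recovered 3, 8 and 6 of the 2-fold changes. Of the 4-fold changes it recovered 60, 72 and 71. False calls were 7 of 70, 2 of 82 and 4 of 81. A gene that did not pass may thus still differ between groups. Alternatives used DESeq2 1.42.0, limma 3.58.1, other scalings and filters, 2 groups alone, a replicate block, and single libraries left out. Chi-square between libraries of a group was at least 56.1 per degree of freedom, so none was taken as a copy. The labels number replicates 1 to 3 in each group. Same-numbered FM and SBM libraries deviated together (r = 0.227, 0.318 and 0.155 over genes). The fit above did not pair them, and the replicate number entered only as a block in an alternative. Values given without naming the block thus ignore any pairing. The genes and lists were chosen with earlier results of these data known. Named genes are those past the threshold, the most abundant and smallest p per role or comparison, those whose groups did not overlap, and the fixed route.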

Additional observations from a re-analysis of the deposited data

How the results depend on the processing

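No called value changed sign under any alternative. The count of transporter genes past the threshold in SBM against FM was 0, and it was 3 with DESeq2, 1 with the replicate block, 2 with a stricter filter (5 CPM in 3 libraries), 1 with upper quartile factors, and 0 to 2 with single libraries left out. In Drug against SBM it was 0, and 3 with DESeq2 and 0 to 1 with single libraries left out. In Drug against FM it was 2, and 8 with DESeq2, 6 with only those 2 groups fitted, 3 with the replicate block and 0 to 6 with single libraries left out: 0 without Drug replicate 3, FM replicate 1 or FM replicate 2, 1 without Drug replicate 2 or FM replicate 3, and 6 without SBM replicate 1. The median log2 difference of the transporters in SBM against FM went from 0.160 to -0.076 with limma on log2(FPKM + 0.1). The FPKM values are scaled by total count for every gene and carry no TMM factors. Those factors were 0.991 to 1.12 in FM and 0.876 to 0.982 in SBM. With single libraries left out the median ranged from 0.06 to 0.25. The count of all genes called in SBM against FM was 105, and 1637 with DESeq2, 69 and 49 with limma at pseudocounts of 0.1 and 1, 0 with only the 2 groups, 295 with the block, 248 with the stricter filter and 2 to 424 with libraries left out. In Drug against SBM it was 7, and 629, 0, 4, 0 and 1 in the same order up to the block, 0 with upper quartile factors and 0 to 36 with libraries left out. In Drug against FM it was 777, and 2455 with DESeq2, 1578 with only the 2 groups, 1293 with the block and 10 to 1711 with libraries left out. The causes were not tested. The correlations of same-numbered libraries of Drug with SBM (r = 0.0681, 0.189 and 0.370) and with FM (0.114, 0.114 and 0.0524) did not all exceed 0.1. In 9 of 9 checks, 3 in each of the 3 comparisons, the same-numbered library still correlated best. These checks share libraries, so they are not independent. In SBM against FM the block changed no call among the transporters other than that of atp1b1b and, among the genes of their partner lists, that of slco2a1. In Drug against FM the block called 7 of those 80 genes, among them ca5a, kcnj19a, wnk4a, ahcyl2b and xpr1a, beside 7.29% of all genes. The stricter filter called 2 of 52, ahcyl2b and kcnj8, beside 7.76% of all genes. Over the 28 named transporters, 488 of 498 values in SBM against FM kept their side of the threshold, 495 of 499 in Drug against SBM and 472 of 498 in Drug against FM, where 8 were lost and 18 gained. Depth limits the scarce genes, such as slc34a2a and slc4a8.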
